A study of Mus musculus with 4 samples.

Results

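The genes described here are the Wnt ligands, their receptors and the regulators of Wnt signalling, in insulin-positive cells made from the mouse gallbladder. Members were taken by gene symbol, as all Wnt, Fzd, Dkk, Sfrp, Rspo, Axin and Dvl genes, Lgr4 to Lgr6, Tcf7, Tcf7l1, Tcf7l2 and Lef1, with Lrp5, Lrp6, Apc, Ctnnb1, Gsk3b, Rnf43, Znrf3 and Wif1. They are 61 of the 20377 genes in the deposited table, and the rule reads gene symbols only, although it was set with earlier results of these data known. There is 1 group, rGBC2, with 4 RNA sequencing libraries. The starting cells were primary gallbladder cells of mice aged 8 weeks on a C57BL/6 background with the transgene B6.Cg-Tg(Ins1-EGFP)1Hara/J, known as MIP-GFP, which drives a green fluorescent protein from an Ins1 promoter. All 4 libraries come from cells that had been given Pdx1, Ngn3, Mafa and PAX6 plus compounds not named in the labels, over 10 days, and that were then sorted for the reporter. The cells therefore have an active Ins1 promoter by selection. The labels do not say whether the libraries came from separate animals or cultures. The p-values therefore measure only the spread between these samples, which may be technical in part. The samples used here include no unreprogrammed cells, so levels are described and no change on reprogramming is given.

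Wnt proteins are secreted lipid-modified ligands that bind frizzled receptors and, for the beta-catenin branch, the co-receptors Lrp5 and Lrp6. Without a ligand, a destruction complex of Axin, Apc and the kinase Gsk3 marks beta-catenin for breakdown, and with a ligand the Dvl proteins help to disable that complex, so that beta-catenin reaches the TCF and LEF factors in the nucleus. Other ligands act through frizzleds on cell polarity and movement. In the developing and adult liver and pancreas the pathway is known for roles in epithelial growth and endocrine cell maturation.

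Values are RPKM, which scales the reads of a gene by its transcript length and by how many reads the library mapped. Levels of different genes are set side by side on this scale, with limits such as Gapdh below. A gene was called above or below 1 RPKM with limma's moderated test on log2(RPKM + 1), two-sided, and p-values were adjusted by the Benjamini-Hochberg method across the 16919 genes with a value over 0 in any library. Depth, estimated from the low values of short olfactory receptor genes, was 22 M to 32.7 M reads per library, and 3 reads on a transcript of 1 kilobase equal 0.0917 to 0.136 RPKM, counting error only. Gapdh, which every cell uses, was at 0.2, 0, 0.04 and 0.03 RPKM in replicates 1 to 4, so a gene at 0 is described as listed at 0. Replicates 3 and 4 resembled each other more than any other pair. The median chi-square of their estimated reads was 5.37 times the sampling expectation, against 41.5 to 106 times in the other 5 pairs. They differed by more than sampling noise and so were not treated as the same library, but whether they share a source was not tested, and if they do, n = 4 overstates the independent samples. With the 2 averaged as 1 sample, an alternative chosen after seeing the data, 31 members lay above 1 RPKM and 20 below it, against 31 and 21. The Y-linked genes Eif2s3y and Ddx3y had 48.5 and 26.85 RPKM in replicate 1 and 44.7 and 38.2 RPKM in replicate 2. Both were listed at 0 in replicates 3 and 4, which thus differed from replicates 1 and 2 in the Y-linked transcripts of their cells.

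The sorted cells carried endocrine and biliary markers. All 7 endocrine markers lay above 1 RPKM, among them Ins2 at 3221 ± 1438 RPKM (SD, n = 4), as did 8 of 10 biliary epithelial markers, among them Epcam at 201 ± 33.7 RPKM. Of all genes tested 65% lay above 1 RPKM, so the counts alone do not identify a cell type. The biliary markers Onecut1, at 7.54, 8.66, 1.31 and 1.01 RPKM in replicates 1 to 4, and Sox9, at 1.2, 0.92, 0.64 and 0.61 RPKM, met neither call (limma, adjusted p = 0.0609 and 0.25). Each library pools many cells, and fewer cells of a type cannot be told apart from less RNA per cell. Of 14 mesenchymal markers 3 lay above 1 RPKM (Fn1, Sparc and Twist1), their summed level was 212 to 494 RPKM, Lum was listed at 0 and Col3a1 reached 0.01 RPKM. Endothelial markers lay above it in 0 of 7 cases (limma, 0 also at an unadjusted p under 0.05 and with any single library left out), with summed levels of 1.04 to 1.32 RPKM. Of 7 immune markers 3 lay above it, all of them macrophage markers: Csf1r averaged 10.9 ± 6.56 RPKM, Cd68 138 ± 19.6 RPKM and C1qa 15.0 ± 9.82 RPKM (SD, n = 4). In replicates 3 and 4 Csf1r was lower and C1qa higher than in replicates 1 and 2. Lyz2, also a macrophage marker, was below 1 RPKM, at 0.04, 0.05, 0.17 and 0.19 RPKM in replicates 1 to 4. Ptprc, the general leukocyte marker, reached 0.01 RPKM. Of 8 neuronal and glial markers 1 lay above 1 RPKM and 3 below it. The 1 above was Tubb3, at 86.9, 76.8, 197 and 194 RPKM in replicates 1 to 4. The part of these cells in the levels below was not tested.

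Of the 61 members, 31 lay above 1 RPKM, 21 below it and 9 met neither call (limma). Among all genes tested 65% lay above and 26.1% below. The median level of the members was 2.17 RPKM, against 7.38 RPKM over all genes tested and 3.53 RPKM over the whole table. The roles differed in how many members were present: all 7 dishevelled and destruction complex genes lay above 1 RPKM, 10 of 12 frizzleds and co-receptors, 5 of 9 R-spondin system genes, 6 of 19 ligands, 2 of 5 of beta-catenin with its factors, and 1 of 9 secreted antagonists. These counts stand side by side, and the differences between roles were not tested.

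Among the ligands, 6 of 19 lay above 1 RPKM, 9 below it and 4 in neither direction. Wnt7b, an epithelial ligand known from lung and kidney, was highest. It was at 18.3, 16.5, 15.7 and 14.9 RPKM in replicates 1 to 4, a mean of 16.4 ± 1.45 RPKM (SD, n = 4; limma, adjusted p = 1.22e-06), and its range did not overlap that of the next ligand. It supplied 33.5% ± 3.43 of the summed ligand RPKM. Wnt7b lies on chromosome 15 from 85365866 to 85412251 (mm9, as are the other coordinates of the deposited table). Wnt9a, a ligand with known roles in joint and liver development, was at 11.2, 10.9, 7.88 and 8.56 RPKM, and Wnt4, known from kidney tubule and gonad formation, at 9.68, 7.79, 4.81 and 4.88 RPKM. Wnt9a exceeded Wnt4 in 4 of 4 libraries although their ranges overlapped.

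The ligands best known for signalling without beta-catenin came next. Wnt5a was at 5.17, 5.69, 2.65 and 2.24 RPKM in order of replicate, and Wnt5b at 3.78, 5.21, 2.78 and 2.83 RPKM. Replicates 1 and 2 were the higher libraries for both, and their order was the same as in the means in 2 of 4 libraries only. The transcript span of Wnt5b overlaps that of Fbxl14 on the opposite strand by 4220 bases, introns included, and Fbxl14 was at 9.65 to 11.8 RPKM. The strand setting of the counting is not given in the sources used here, so the Wnt5b level is uncertain. Wnt7a, a ligand related to Wnt7b, was at 1.87, 3.95, 2.85 and 2.74 RPKM (limma, adjusted p = 0.00383). These 6 ligands together took most of the summed ligand level, which was 58.1, 55.4, 42.3 and 41.9 RPKM in replicates 1 to 4.

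The 4 ligands near 1 RPKM met neither call. Wnt16, a regulator of cortical bone, stood at 2.89, 0.54, 0.46 and 0.44 RPKM, highest in replicate 1, and met neither call (limma, adjusted p = 0.767). Without replicate 1 its mean was 0.48 instead of 1.08 RPKM and it lay below 1 RPKM (limma, adjusted p = 0.00108). Wnt11, a polarity ligand, was at 1.03, 1.79, 1.45 and 1.41 RPKM and met neither call (limma, adjusted p = 0.0698), but lay above 1 RPKM without replicate 1 (limma, adjusted p = 0.0384). Wnt3, a canonical ligand of gut and limb, was at 0.64, 0.4, 1.35 and 1.54 RPKM, with replicates 3 and 4 the higher ones. Wnt10b, known from bone and fat tissue, was at 1.07, 0.13, 0.82 and 0.79 RPKM, lowest in replicate 2. For Wnt3 and Wnt10b the limma adjusted p was 0.758 and 0.14.

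The 9 ligands below 1 RPKM included the canonical ligands Wnt1 and Wnt3a. Wnt3a was at 0.2, 0.23, 0.1 and 0.12 RPKM, and Wnt1 at 0.27, 0.1, 0.07 and 0.01 RPKM, or at a mean of 0.06 instead of 0.113 RPKM without replicate 1. Wnt6 averaged 0.56 RPKM and Wnt9b 0.52 RPKM. Wnt2b was at 0.93, 0.74, 0.23 and 0.19 RPKM, and its call was lost without replicate 3 or without replicate 4 (limma, adjusted p = 0.0784 and 0.0778, against 0.0269 with all 4 libraries), as it was with replicates 3 and 4 averaged (limma, adjusted p = 0.0808). Wnt10a reached 0.19 RPKM in replicate 2. Wnt2, Wnt8a and Wnt8b were listed at 0 in at least 1 library each and reached at most 0.04 RPKM, which is an estimated 3.0 reads.

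**Figure D1:**
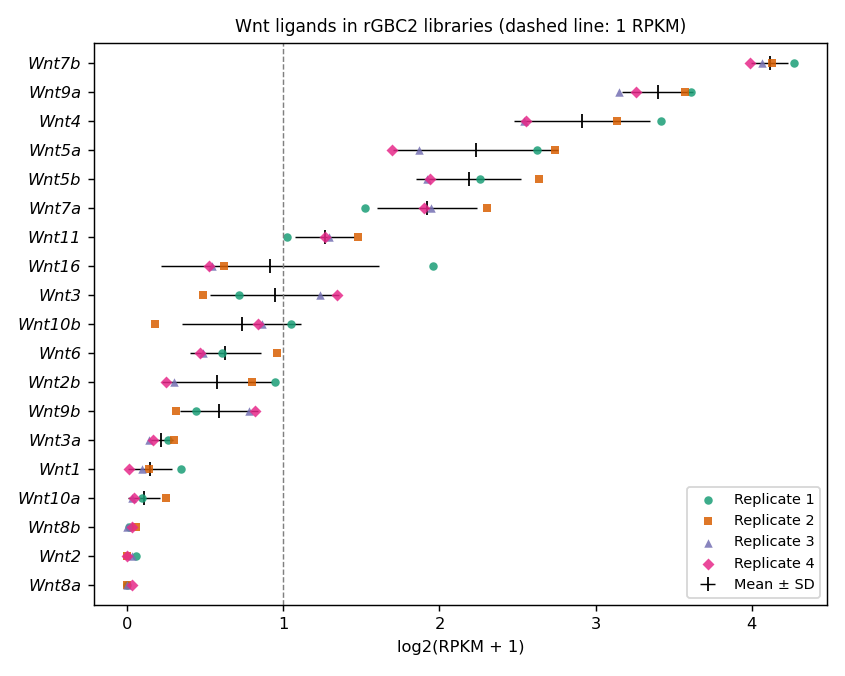
Levels of the 19 Wnt ligands on the log2(RPKM + 1) scale in replicates 1 to 4 of rGBC2 (points), with the mean ± SD (black, n = 4, drawn only for genes above 0 in every library) and 1 RPKM as a dashed line. Wnt7b is highest in every library, at 14.9 to 18.3 RPKM, and the single high point of Wnt16 is replicate 1, at 2.89 RPKM.

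The genes that make Wnt proteins secretable were also transcribed. Wls, the carrier that brings Wnt proteins to the cell surface, stood at 86.4 ± 20.4 RPKM and Porcn, the enzyme that adds their lipid, at 11.2 ± 0.985 RPKM (SD, n = 4), both above 1 RPKM (limma, adjusted p = 5.11e-07 and 4.76e-06). Notum, which removes that lipid outside the cell and is itself a Wnt target, was at 2.34, 1.61, 1.1 and 1.1 RPKM and met neither call (limma, adjusted p = 0.0948).

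Of 10 frizzled receptors 8 lay above 1 RPKM, beside 65% of all genes tested, and 2 met neither call. Below 1 RPKM there were 0 (limma, 0 also at an unadjusted p under 0.05). Against 2 RPKM, Fzd1, Fzd2 and Fzd4 met neither call (limma, adjusted p = 0.182, 0.343 and 0.211). The levels of the frizzleds were unequal. Fzd6, a receptor known from hair and skin polarity that can restrain the beta-catenin branch, was at 79.6, 174, 100.7 and 97.5 RPKM in replicates 1 to 4, with replicate 2 highest. Its mean was 113 ± 41.5 RPKM (SD, n = 4; limma, adjusted p = 1.13e-06), and it ranked 1114, 434, 950 and 1027 among the 20377 genes. It maps to chromosome 15 from 38837825 to 38869736. Fzd5, a receptor of the beta-catenin branch in gut epithelium, was at 50.5, 54.6, 65.1 and 59.6 RPKM, with replicates 3 and 4 both above replicates 1 and 2. Fzd6 and Fzd5 supplied 54.6% ± 7.47 and 29.3% ± 5.94 of the summed frizzled RPKM, and their ranges did not overlap.

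The other frizzleds were at much lower levels. Fzd7, a receptor linked to stem cells of the gut, was at 14.1, 13.8, 9.09 and 9.11 RPKM, and Fzd8 at 6.77, 7.1, 5.88 and 6.49 RPKM. In both genes replicates 3 and 4 lay below replicates 1 and 2. Fzd3, a receptor of axon guidance and polarity, averaged 3.41 RPKM, Fzd1 2.80 RPKM, Fzd4, the receptor for the retinal ligand norrin, 2.71 RPKM and Fzd2 2.32 RPKM, and the ranges of neighbours in this order overlapped. Fzd10 was at 0.77, 1.42, 2.36 and 2.15 RPKM and Fzd9 at 0.54, 0.25, 1.2 and 1.2 RPKM, and both met neither call (limma, adjusted p = 0.102 and 0.284). Replicates 3 and 4 were the higher ones for both. Without replicate 1, Fzd10 lay above 1 RPKM (limma, adjusted p = 0.0246).

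Both co-receptors of the beta-catenin branch were present at similar mean levels but with different spreads. Lrp6 was at 40.3, 35.8, 15.0 and 11.1 RPKM in replicates 1 to 4, a mean of 25.5 ± 14.6 RPKM (SD, n = 4), and Lrp5 at 32.9, 18.0, 23.2 and 23.1 RPKM, a mean of 24.3 ± 6.23 RPKM. Lrp6 exceeded Lrp5 in replicates 1 and 2 and was lower in replicates 3 and 4. Lrp6 minus Lrp5 averaged -0.09 ± 0.88 in log2(RPKM + 1) units (SD, n = 4), within its own spread (p = 0.875, exact sign-flip permutation test), and it was 0.08 without replicate 3 and 0.21 without replicate 4. With 4 libraries the smallest p this two-sided test can give is 0.125, which becomes 0.141 after adjustment over the 9 gene pairs compared, so none of them can pass 0.05 and the values carry the comparison.

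Of 15 other receptors and surface regulators, 7 lay above 1 RPKM, 4 below it, 2 in neither direction and 2 were listed at 0. The highest were Ryk, a Wnt co-receptor of the kinase type, at 34.6 ± 10.98 RPKM, Tspan12, a tetraspanin that works with Fzd4, at 27.0 ± 14.2 RPKM and Kremen1, a receptor for Dkk proteins, at 24.7 ± 4.34 RPKM (SD, n = 4). Ror1 and Ror2, receptors for Wnt5a, were below 1 RPKM at 0.14 ± 0.118 RPKM and 0.11 ± 0.0432 RPKM (limma, adjusted p = 3.27e-05 and 1.28e-06). Norrin (Ndp) and the antagonist Sostdc1 were listed at 0 in every library.

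R-spondins enhance Wnt signalling by binding Lgr receptors and drawing the ligases Rnf43 and Znrf3, which remove frizzleds, from the surface. Lgr4, the broadly expressed receptor of the family, was at 19.7, 8.16, 4.75 and 3.78 RPKM in replicates 1 to 4. Replicate 1 was highest, and without it the mean was 5.56 instead of 9.09 RPKM. Lgr5, a marker of adult stem cells in the gut and of injured liver ducts, was at 0.02, 0, 0.04 and 0.03 RPKM, an estimated 4.6 reads at most, and Lgr6, a stem cell marker of skin, reached at most 0.04 RPKM. Both lay below 1 RPKM (limma, adjusted p = 2.39e-07 for Lgr5 and 2.54e-07 for Lgr6). Lgr4 exceeded Lgr5 in 4 of 4 libraries, by 3.05 ± 0.95 in log2(RPKM + 1) units, which understates the ratio because Lgr5 is near 0 (exact sign-flip permutation p = 0.125, n = 4).

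The R-spondin transcripts were those of Rspo4 and Rspo1. Rspo4, known for its role in nail formation, was at 2.83, 4.63, 7.2 and 7.02 RPKM in replicates 1 to 4, with replicates 3 and 4 the higher ones, and supplied 69.5% ± 10.7 of the summed R-spondin RPKM. Rspo1, known from ovary development, was at 2.42, 1.66, 2.28 and 2.31 RPKM. Both lay above 1 RPKM (limma, adjusted p = 0.0011 and 0.0047). Rspo2 and Rspo3, which act in lung, limb and blood vessel development, reached at most 0.02 and 0.04 RPKM and were listed at 0 in 3 and 2 libraries.

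Both surface ligases were present at low levels. Rnf43 was at 5.56, 4.45, 3.75 and 3.92 RPKM and Znrf3 at 2.99, 2.61, 1.75 and 1.63 RPKM, in both genes with replicates 3 and 4 below replicates 1 and 2. Rnf43 exceeded Znrf3 in 4 of 4 libraries, by 0.75 ± 0.13 in log2(RPKM + 1) units (SD, n = 4; exact sign-flip permutation p = 0.125), and their ranges did not overlap.

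**Figure D2:**
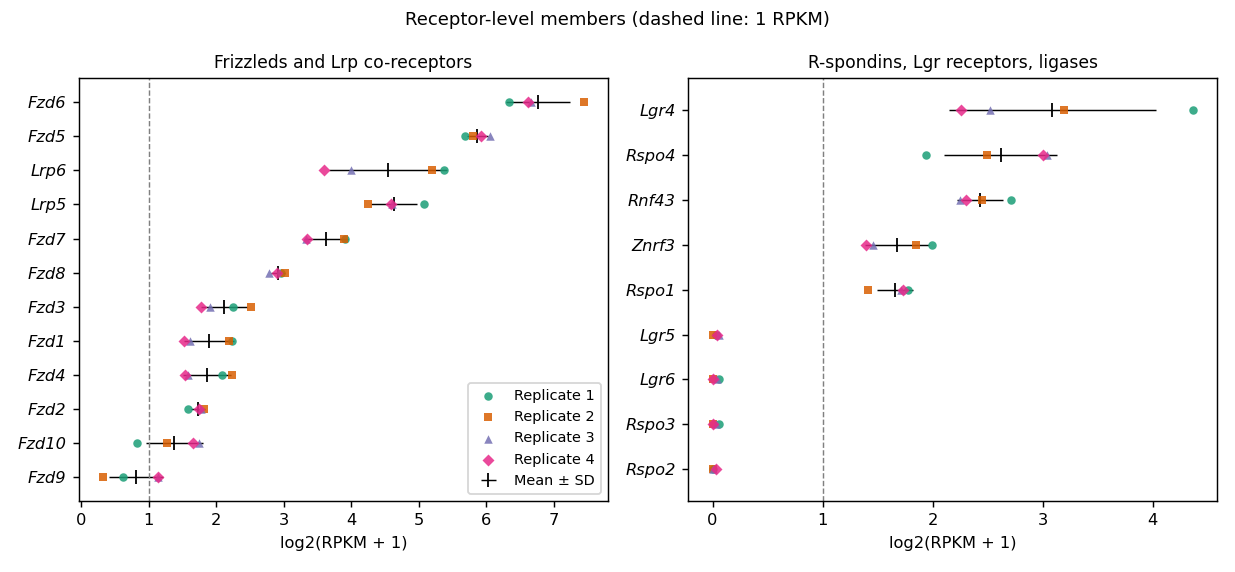
Levels of the frizzleds with Lrp5 and Lrp6 (left) and of the R-spondins, Lgr receptors and ligases (right) on the log2(RPKM + 1) scale in replicates 1 to 4 of rGBC2, with the mean ± SD (black, n = 4, drawn only for genes above 0 in every library) and 1 RPKM as a dashed line. Fzd6 and Fzd5 stand apart from the other frizzleds, Lrp6 is spread over 11.1 to 40.3 RPKM, and Lgr5, Lgr6, Rspo2 and Rspo3 lie at or near 0.

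Of the 9 secreted antagonists 1 lay above 1 RPKM, 7 below it and 1 in neither direction. Sfrp5, a decoy that binds Wnt proteins and is known from foregut endoderm, was at 37.5, 25.9, 35.6 and 35.4 RPKM in replicates 1 to 4, a mean of 33.6 ± 5.22 RPKM (SD, n = 4; limma, adjusted p = 6.27e-07). Replicate 2 was lowest. Sfrp5 supplied 96.6% ± 1.34 of the summed RPKM of the 9 antagonists, and maps to chromosome 19 from 42272460 to 42276742. Its relative Sfrp2 was at 0.46, 0.21, 1.21 and 1.52 RPKM, higher in replicates 3 and 4, and met neither call (limma, adjusted p = 0.415). Sfrp1 was at 0.17, 0.3, 0.16 and 0.16 RPKM and below 1 RPKM.

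The Dkk genes, among them Dkk1, whose protein blocks Lrp5 and Lrp6, were all below 1 RPKM. Each was listed at 0 in at least 1 library. Dkk1 was at 0.02 RPKM in replicate 2 alone, an estimated 1.1 reads, and the highest value of any Dkk gene was 0.04 RPKM. Sfrp4 was at 0.04 RPKM in replicate 4 alone. Wif1, which binds Wnt proteins directly, was at 0.09, 0.09, 0.02 and 0.12 RPKM (limma, adjusted p = 1.02e-06).

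Each of the 7 dishevelled and destruction complex genes lay above 1 RPKM. Gsk3b, the kinase that marks beta-catenin, was at 38.4, 26.3, 24.7 and 20.4 RPKM in replicates 1 to 4, with replicate 1 highest. Its close relative Gsk3a was higher in 4 of 4 libraries, at 62.2 ± 10.7 RPKM, so that Gsk3b minus Gsk3a was -1.17 ± 0.54 in log2(RPKM + 1) units (SD, n = 4; exact sign-flip permutation p = 0.125). Dvl1 was at 27.4, 18.7, 28.7 and 26.4 RPKM, Dvl3 at 15.3, 10.0, 19.3 and 17.5 RPKM and Dvl2 at 11.6, 7.6, 9.52 and 10.2 RPKM. The span of Dvl1 overlaps that of Tas1r3 by 35 bases, and Tas1r3 was at 0.66 to 1.23 RPKM. Replicate 2 was lowest for all 3 dishevelled genes. Dvl3 was lower than Dvl1 in 4 of 4 libraries, at -0.69 ± 0.15 in log2(RPKM + 1) units (exact sign-flip permutation p = 0.125, n = 4).

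Axin1, the scaffold of the destruction complex, varied least among these genes. It was at 24.3, 20.6, 23.4 and 24.3 RPKM, a mean of 23.2 ± 1.75 RPKM (SD, n = 4; limma, adjusted p = 4.62e-07). Axin2, the scaffold copy that Wnt signalling itself induces, was at 2.53, 1.97, 2.55 and 2.85 RPKM and also above 1 RPKM (limma, adjusted p = 0.00254). The difference of Axin2 minus Axin1 was -2.80 ± 0.07 in log2(RPKM + 1) units (SD, n = 4; exact sign-flip permutation p = 0.125), the smallest spread of the 9 pairs. Apc, the tumour suppressor that binds beta-catenin in the complex, was at 24.8, 19.98, 7.81 and 5.7 RPKM, and its values in replicates 3 and 4 lay below those in replicates 1 and 2. It was 4.35-fold higher in its highest library than in its lowest.

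Ctnnb1, which encodes beta-catenin, was the most abundant member. It was at 583, 674, 781 and 851 RPKM in replicates 1 to 4, a mean of 722 ± 118 RPKM (SD, n = 4; limma, adjusted p = 2.59e-07), with replicates 3 and 4 above replicates 1 and 2. It ranked 62, 70, 59 and 59 among the 20377 genes and maps to chromosome 9 from 120842695 to 120869625. Beta-catenin also holds cadherins at cell junctions, and 5 of 6 junction partners lay above 1 RPKM. Ctnna1, alpha-catenin, stood at 207 ± 7.58 RPKM, Cdh1, E-cadherin, at 102 ± 20.1 RPKM and Ctnnd1, p120 catenin, at 91.1 ± 20.8 RPKM (SD, n = 4), while Cdh2, N-cadherin, was below 1 RPKM at 0.53 ± 0.328 RPKM (limma, adjusted p = 0.0153). Ctnnb1 exceeded Jup, its junctional relative, in 4 of 4 libraries, by 3.33 ± 0.22 in log2(RPKM + 1) units, 10.1-fold as a ratio of RPKM + 1 (exact sign-flip permutation p = 0.125).

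The TCF and LEF factors through which beta-catenin acts were low beside it. Tcf7l2, the member linked to diabetes risk in humans, was at 3.3, 2.71, 1.88 and 1.58 RPKM across replicates 1 to 4 and above 1 RPKM (limma, adjusted p = 0.00959). Against 2 RPKM it met neither call (limma, adjusted p = 0.486). Tcf7 was at 1.35, 1.23, 0.57 and 0.35 RPKM and Tcf7l1, which mostly represses targets, at 1.26, 0.3, 0.55 and 0.55 RPKM, and both met neither call (limma, adjusted p = 0.447 and 0.0809). Without replicate 1, Tcf7l1 lay below 1 RPKM (limma, adjusted p = 0.00398). Lef1, a factor induced by Wnt signalling in many tissues, was at 0.02, 0.13, 0.23 and 0.14 RPKM and below 1 RPKM (limma, adjusted p = 1.09e-05).

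Within the factor family, Tcf7l2 supplied 59.0% ± 2.75 of the summed RPKM. Tcf7l2 exceeded Tcf7l1 in 4 of 4 libraries, by 1.02 ± 0.34 in log2(RPKM + 1) units, and Tcf7 exceeded Lef1 in 4 of 4, by 0.70 ± 0.47 (SD, n = 4; exact sign-flip permutation p = 0.125 for each). Replicates 3 and 4 were the lower libraries for Tcf7l2 and Tcf7, and the higher ones for Lef1.

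**Figure D3:**
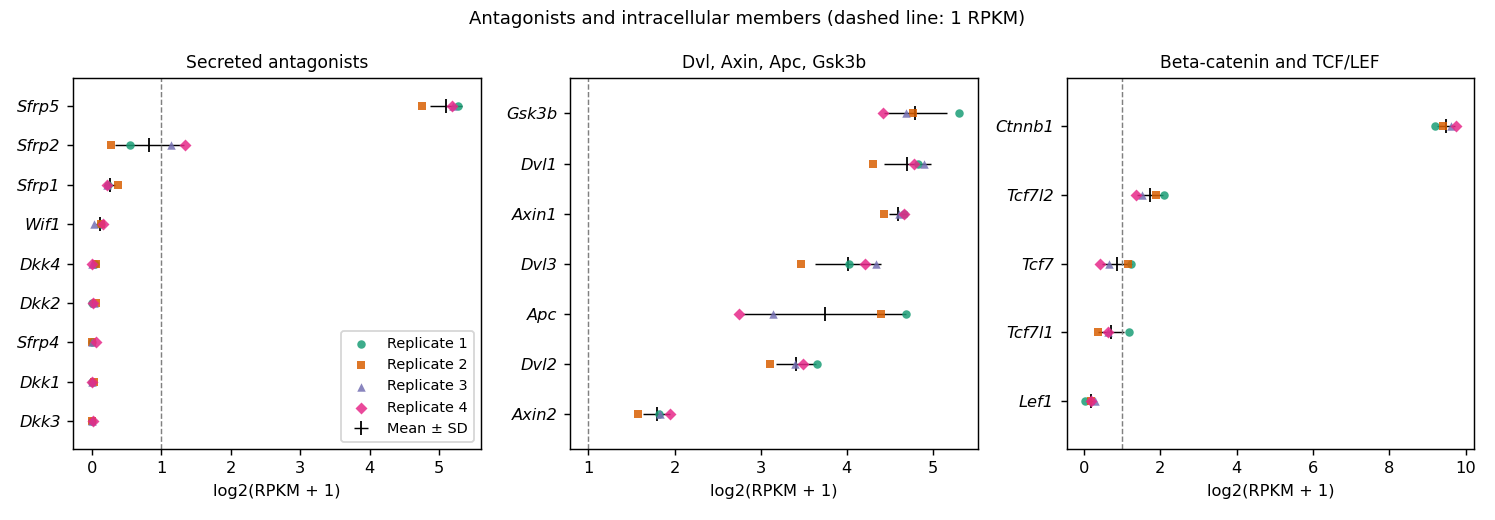
Levels of the secreted antagonists (left), the dishevelled and destruction complex genes (middle) and Ctnnb1 with the TCF and LEF factors (right) on the log2(RPKM + 1) scale in replicates 1 to 4 of rGBC2, with the mean ± SD (black, n = 4, drawn only for genes above 0 in every library) and 1 RPKM as a dashed line. The horizontal scales differ between panels. Sfrp5 is the only antagonist above 1 RPKM by the test, and Ctnnb1 at 583 to 851 RPKM stands far above Tcf7l2 at 1.58 to 3.3 RPKM.

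**Figure D4:**
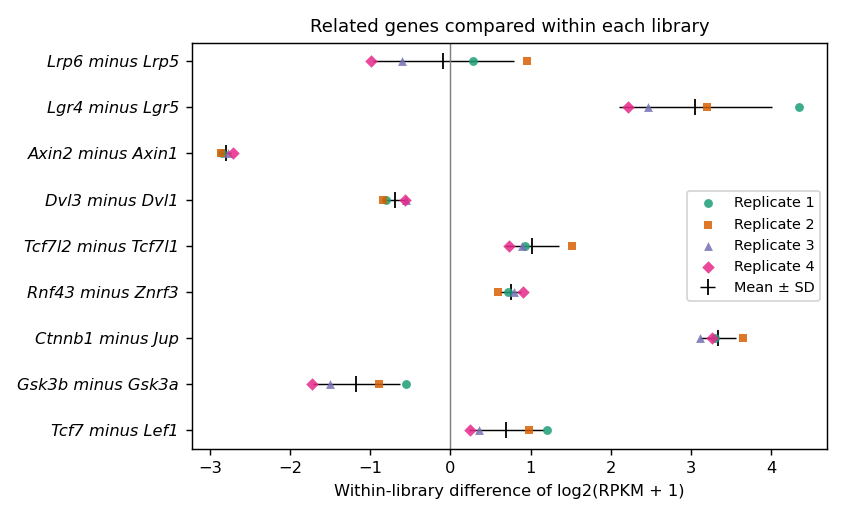
Within-library differences of log2(RPKM + 1), first gene minus second, for the 9 gene pairs in replicates 1 to 4 of rGBC2 (points), with the mean ± SD (black, n = 4). Lrp6 minus Lrp5 lies on both sides of 0, while the other 8 pairs keep 1 direction in all 4 libraries and Axin2 minus Axin1 has the smallest spread, with a mean of -2.80.

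Partners of these proteins in the cytoplasm and nucleus were counted in the same way. Of 14 measured cytoplasmic regulators 12 lay above 1 RPKM, led by the casein kinase Csnk1a1 at 216 ± 41.2 RPKM, the tankyrase Tnks2, which destabilizes Axin, at 119 ± 55.2 RPKM and Csnk1d at 94.9 ± 7.5 RPKM (SD, n = 4). Of 11 nuclear cofactors 10 lay above it, led by the corepressors Ctbp1 at 78.2 ± 13.4 RPKM and Tle3 at 34.3 ± 4.76 RPKM and by Pygo2, a beta-catenin coactivator, at 26.6 ± 4.72 RPKM. Of 11 planar polarity genes 10 lay above it, led by Daam1, a formin that works with Dvl, at 70.5 ± 7.35 RPKM, Scrib at 15.0 ± 3.11 RPKM and Invs at 12.8 ± 1.78 RPKM. Over all 78 other pathway genes in the table, 55 lay above 1 RPKM and 13 below it, beside 65% and 26.1% of all genes tested, and nothing particular to these lists is read from the counts.

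Of 18 genes that textbooks list as Wnt targets, 9 lay above 1 RPKM, 6 below and 3 in neither direction. Among all genes tested 65% lay above and 26.1% below, and nothing particular to Wnt targets is read from the counts. The highest were Ccnd1, cyclin D1, at 40.0 ± 9.28 RPKM, Apcdd1, a Wnt inhibitor at the cell surface, at 23.0 ± 7.91 RPKM and Cd44, an adhesion molecule, at 15.2 ± 7.04 RPKM (SD, n = 4). Nkd1, Nkd2 and Sp5, feedback genes that are induced by Wnt signalling in many tissues, were below 1 RPKM at 0.568 ± 0.326, 0.113 ± 0.0263 and 0.433 ± 0.172 RPKM (limma, adjusted p = 0.027, 6.52e-07 and 0.00114). Among members known to be induced by Wnt signalling, Axin2, Rnf43 and Znrf3 lay above 1 RPKM and Lef1, Dkk1 and Lgr5 below it, a selection named after their values were seen. Against 2 RPKM, Axin2 and Znrf3 met neither call (limma, adjusted p = 0.216 and 0.615), so this split depends on the threshold.

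The promoters of 3 such feedback genes are shown because their levels differ: Axin2 at 1.97 to 2.85 RPKM, and Dkk1 and Lef1 at no more than 0.02 and 0.23 RPKM. The sequences are the 250 bases before a RefSeq transcript start in GRCm38.p6, on the gene's own strand, at chr11:108920099-108920348 (plus strand) for Axin2, chr19:30549497-30549746 (minus strand) for Dkk1 and chr3:131156044-131156293 (plus strand) for Lef1, the 1 of its 4 listed starts whose window holds the searched letters. Capitals mark CTTTGA, the core letters bound by TCF and LEF factors, or TCAAAG, the same letters on the other strand.
Axin2: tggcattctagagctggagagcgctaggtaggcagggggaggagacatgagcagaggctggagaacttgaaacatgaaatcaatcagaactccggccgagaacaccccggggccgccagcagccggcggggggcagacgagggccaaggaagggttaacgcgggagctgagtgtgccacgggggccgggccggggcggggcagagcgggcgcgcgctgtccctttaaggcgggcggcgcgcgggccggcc
Dkk1: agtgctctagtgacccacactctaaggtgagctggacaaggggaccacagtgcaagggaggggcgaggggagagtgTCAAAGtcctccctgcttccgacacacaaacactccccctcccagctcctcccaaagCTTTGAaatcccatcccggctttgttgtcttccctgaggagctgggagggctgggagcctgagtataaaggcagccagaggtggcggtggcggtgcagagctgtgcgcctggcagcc
Lef1: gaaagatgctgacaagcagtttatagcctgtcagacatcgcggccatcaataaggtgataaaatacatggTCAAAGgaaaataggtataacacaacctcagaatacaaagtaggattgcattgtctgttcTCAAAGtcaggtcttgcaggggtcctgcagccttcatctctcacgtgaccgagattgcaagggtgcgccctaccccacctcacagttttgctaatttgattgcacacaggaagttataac
The Dkk1 window holds the letters at 2 places, starting 174 and 117 bases before the transcript start, whereas those letters are not in the Axin2 window. The printed Lef1 window holds them at 2 places, 180 and 120 bases before its start. It was chosen for holding them, so this match was fixed by the choice, and only 1 of the 4 Lef1 windows holds them. Which Lef1 start these cells use was not tested. Of all 32851 promoter windows of this length 13.8% hold the letters on either strand. Of the 51 windows of the 41 members with an entry 6 do (11.8%), 1 each for Lef1, Dkk1, Fzd1, Wnt5b, Wnt11 and Gsk3b. A match describes letters only, and no factor binding was measured here.

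The libraries differed among themselves over the whole table, and nothing particular to the members is read from the counts. In 26 of 61 members both replicates 3 and 4 lay below both replicates 1 and 2, and in 12 both lay above, against 38.5% and 24.2% of all genes tested. Among the 31 members above 1 RPKM these counts were 17 and 5, against 40.3% and 30.6% of all genes above 1 RPKM. Apc, Lrp6 and Lgr4 had the widest spreads, with a highest library 4.35-fold, 3.62-fold and 5.2-fold above the lowest, and all 3 were lower in replicates 3 and 4. The 5 that were higher there were Ctnnb1, Fzd5, Dvl3, Rspo4 and Axin2.

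Transcript length and base composition are given beside this pattern. The 17 lower members had a median transcript of 5060 bases with 50.7% GC, the 5 higher members a median of 2702 bases with 54.6% GC, and the 9 overlapping members 3172 bases with 58.6% GC. Among members, as over all genes, GC was lowest in the lower genes. It was highest in the 9 overlapping members, and over all genes in the higher ones. Over all genes above 1 RPKM the lower genes had a median of 3514 bases with 46.4% GC the higher genes 2465.5 bases with 54.7% GC, and the overlapping genes 2632 bases with 52.2% GC. Of the 7 endocrine markers 5 were higher in both replicates 3 and 4 (Ins1, Ins2, Cpe, Chga and Neurod1), Insm1 was lower in both and Iapp overlapped. Chga, chromogranin A, differed most, with 33.1, 23.7, 471 and 470 RPKM in replicates 1 to 4. The part of length, base composition, endocrine content and the Y-linked difference in these spreads was not tested.

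**Figure D5:**
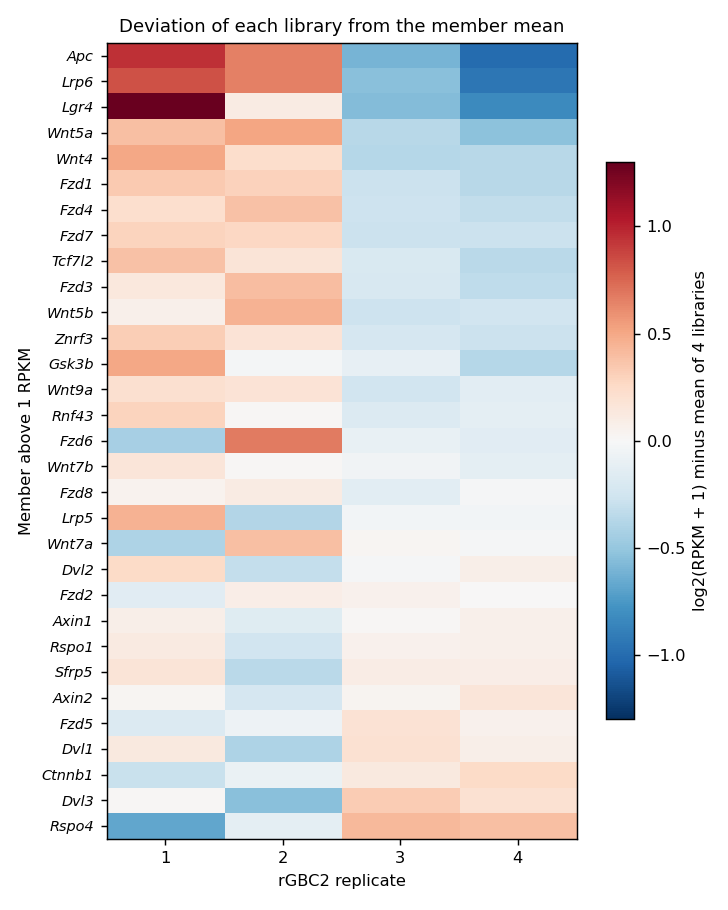
Deviation of each library from the mean of 4 libraries, as a difference of log2(RPKM + 1), for the 31 members above 1 RPKM (rows) in replicates 1 to 4 of rGBC2 (columns), with red above and blue below the mean. Rows are ordered by the values in replicates 3 and 4. Apc, Lrp6 and Lgr4 at the top are low in replicates 3 and 4, and Rspo4 at the bottom is high there, at 7.2 and 7.02 RPKM.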

How the data were processed

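The 4 libraries of the single group were analysed. The deposited table holds RPKM values, rounded to 2 decimals by the authors, with 1 RefSeq transcript identifier for each of 20377 genes. CASAVA 1.8.2, Bowtie and build mm9 are named in the submitters' processing notes, and the counting program is not given in the sources used here. Another 6 per-sample columns in the table carry names of no sample listed for the series and were left aside. The members and lists were chosen with earlier results of these data known.

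Levels were tested with limma 3.58.1 in R 4.3.3 on log2(RPKM + 1), with variances moderated along a trend with the mean, against 1 RPKM, with a threshold of 0.05. The fit was made on the whole table and checked on simulated data. There 98% of 100 genes set at 4 RPKM and 60% of 100 genes set at 2 RPKM were called above 1 RPKM. Of 5194 genes set at 1 RPKM, 1.14% were called above it and 3.64% below it, and 6.66% had an unadjusted p under 0.05. The simulated noise was independent between libraries, so the check does not cover the likeness of replicates 3 and 4. Differences within libraries used log2(RPKM + 1) and a sign-flip permutation test, exact and two-sided. Depth was estimated as the smallest at which all values up to 0.3 RPKM of olfactory receptor genes spanning under 1100 bases were whole reads within 0.0055 RPKM, from 14 to 32 values per library. Read numbers used transcript lengths matched by RefSeq identifier in GENCODE M21 (98.1% of genes, all 61 members). In each role the members above 1 RPKM were named, the 5 with the highest mean with the values of all libraries, as were members in neither direction. Members below 1 RPKM are given by range, and of each other list the 3 genes with the highest mean and the genes of tested pairs are named. Values given for members beyond the first 5, and further genes such as Nkd1, Sp5 and Chga, were picked after seeing them. Alternatives changed the pseudocount, filter, trend, scaling, threshold and libraries.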

Additional observations from a re-analysis of the deposited data

Results flagged for a closer look

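In 2 members with values above 0 in every library, 1 library stood apart from the other 3 by the Dixon test, which chance does in about 1 in 20 groups. Wnt16 at 2.89 RPKM in replicate 1, against 0.44 to 0.54 RPKM in the others, was the higher of these. Sfrp1 was at 0.3 RPKM in replicate 2 and at 0.16 to 0.17 RPKM in the others. Another 5 members were listed at 0 in 3 libraries, where the gap equals the range by construction, so for them the test says nothing and only the values are given: Dkk1 was at 0.02 RPKM in replicate 2, and in replicate 4 Rspo2 was at 0.02 RPKM, Wnt8a at 0.02 RPKM, Sfrp4 at 0.04 RPKM and Dkk3 at 0.01 RPKM.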

How the results depend on the processing

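Of 61 members 41 kept their call under all 14 alternatives that tested them. Of the members, 31 to 33 lay above 1 RPKM and 16 to 23 below it when 1 library was left out, and leaving out replicate 4 took some members listed at 0 in the others out of the test. Over all genes 10788 to 10867 lay above and 4120 to 4204 below. With only genes of at least 0.1 RPKM in 2 libraries 7 members and 1960 genes lay below 1 RPKM, and with no filter 7777 genes did, since the filter sets how many low genes are tested. Against 2 RPKM 23 members lay above and 28 below. Axin2, Fzd1, Fzd2, Fzd4, Rspo1, Tcf7l2, Wnt7a and Znrf3, which lay above 1 RPKM, met neither call there. Wnt6 changed sign against 0.5 RPKM (0.043 on the log2 scale) and on a TPM scale (0.010), Wnt9b against 0.5 RPKM (0.00302) and Wnt11 against 2 RPKM (-0.32). A shifted threshold moves these values by construction, and so does the TPM scale, since RPKM summed to 481676 to 581805 per library and every TPM value is therefore higher than its RPKM. The 9 differences between genes kept their direction except Lrp6 minus Lrp5, which lay between -0.44 and 0.21 with 1 library left out and was 0.15 with replicates 3 and 4 averaged as 1 sample, an alternative chosen after seeing the data. With that alternative 52 of the 78 other pathway genes lay above 1 RPKM. No paired analysis was possible because there is only 1 group. Depth limits genes of a few reads, such as Lgr5 and the Dkk genes.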
